A study of Arabidopsis thaliana with 8 samples.

Results

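Of the genes of Arabidopsis thaliana that encode no microRNA, 5 are described here: AT2G14070, AT2G14090, AT3G59240, AT3G59180 and AT3G57710, which had more 21-nt small RNA in plants lacking the Dicer enzymes DCL4 and DCL2 than in plants that have them. They are 5 of the 32420 genes of the deposited table, and they were picked by gene identifier after their 21-nt or 22-nt values had been seen to lie highest in the Dicer mutants. The contrast between the Dicer mutants and their parent line is therefore a description for these loci, with no test. Small RNA was sequenced from the aerial parts of untreated plants 20 days old, of which 6 days were spent on MS medium and the remaining 14 in soil. The line es3dd carries ein5-1, ski2-3, dcl4-2 and dcl2-1 (4 libraries), and the line es3 carries ein5-1 and ski2-3 (4 libraries). Both lines therefore share the loss of EIN5 and SKI2, and no line lacks the Dicers alone. Col is the wild type and enters as the authors' mean, because its libraries are not among the labelled samples.

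Dicer enzymes cut double-stranded RNA into small RNAs. DCL1 makes most microRNAs from short hairpin precursors, DCL4 makes 21-nt siRNAs, DCL2 makes 22-nt siRNAs and DCL3 makes 24-nt siRNAs. EIN5 (XRN4) degrades messenger RNA from the 5′ end and SKI2 is a helicase of the machinery that degrades it from the 3′ end, and plants without both turn many of their own transcripts into siRNAs. Plant siRNA loci often lie in young gene families, where diverged copies, pseudogenes and inverted repeats can form RNA duplexes, and F-box genes, whose products choose proteins for degradation, are among the largest such families.

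By annotation AT2G14090, AT3G59240 and AT3G59180 belong to the F-box-related genes with RNI-like (leucine-rich) or FBD domains, AT3G57710 is kinase-like, and AT2G14070 belongs to neither group. AT2G14070 (chr2:5921881-5923151, plus strand) is annotated as a wound-responsive protein-like gene with 2 exons. AT2G14090 (chr2:5929814-5931809, minus strand) is a transcribed pseudogene of an F-box/RNI-like gene, and its end overlaps AT2G14080 by 89 bases. AT3G59240 (chr3:21898682-21900364, minus strand) encodes an RNI-like protein in 3 exons. AT3G59180 (chr3:21880719-21882459, plus strand) encodes a protein with RNI-like and FBD-like domains, also in 3 exons. AT3G57710 (chr3:21384676-21387399, minus strand) is RKS1 (Resistance related KinaSe 1), a pseudokinase of the ZED1-related family that acts in immune recognition of bacteria. All of AT3G57700 (1023 bases) and an antisense RNA gene, AT3G08975 (183 bases), lie inside it on the other strand, and whether the authors counted by strand is not given in the sources used here. Positions and sequences are from the RefSeq annotation of assembly TAIR10.1, and the submitters' processing notes name TAIR10.

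AT2G14070, AT2G14090 and AT3G59240 carry one identical stretch of 32 bases, long enough to hold a whole 21-nt or 22-nt small RNA. It is shown in capitals with 14 flanking bases, 5′ to 3′ on the strand of each gene. In AT2G14070 it lies at chr2:5921917-5921948 in a coding exon, in AT2G14090 at chr2:5930175-5930206 in the pseudogene, and in AT3G59240 at chr3:21898920-21898951 in a coding exon.
AT2G14070: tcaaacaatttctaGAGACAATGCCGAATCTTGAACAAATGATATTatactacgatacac
AT2G14090: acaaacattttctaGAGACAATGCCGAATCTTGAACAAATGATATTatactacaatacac
AT3G59240: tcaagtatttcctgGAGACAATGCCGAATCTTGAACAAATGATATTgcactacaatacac
These 32 bases hold 12 words of 21 letters, and 8 of them occur in no annotated gene outside the 3 loci. The other 4 also occur in AT3G49150, an F-box/FBD gene with 1 of them, or in AT4G13575, with 3. At 21 nt AT3G49150 had means of 0 TPM in es3dd and 0.410 TPM in es3. AT4G13575 had means of 11.9 TPM in es3dd and 7.95 TPM in es3.

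AT2G14090 and AT3G59240 share a second stretch, of 34 bases, that AT2G14070 lacks. It lies at chr2:5931120-5931153 in the pseudogene and at chr3:21899865-21899898 in a coding exon of AT3G59240.
AT2G14090: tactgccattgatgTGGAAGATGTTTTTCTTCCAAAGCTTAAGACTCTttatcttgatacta
AT3G59240: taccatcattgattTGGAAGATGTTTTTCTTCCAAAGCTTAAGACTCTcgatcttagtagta
In all, AT2G14090 and AT3G59240 share 29 words of 21 letters, which is 1.47% of the words of AT2G14090 and 1.74% of those of AT3G59240. AT2G14070 and AT2G14090, on either side of AT2G14080 on chromosome 2, share 34 words (2.72% and 1.72%), the longest stretch being 45 bases, and AT2G14070 and AT3G59240 share 12 words (0.959% and 0.722%), all in the printed stretch. AT3G59180 shares 2 words with AT2G14090 and 1 with AT3G59240. Of the 10 pairs of loci, none shared a word of 21 letters between opposite strands. Genes with little small RNA share such words with these loci too. AT3G49150 shares 28 words with AT3G59240 and 14 with AT2G14090 on the same strand. Its 21-nt means were 0 TPM in es3dd, 0.410 TPM in es3 and 0.360 TPM in Col. AT3G59200 shares 18 words with AT3G59240, and its 21-nt means were 0 TPM in es3dd and 0.555 TPM in es3.

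AT3G57710 shares no word of 21 letters with the other 4 loci, and it is the one locus of the 5 in which an alignment of the gene to its own reverse complement found an inverted repeat. The arms, at chr3:21386665-21386978 in the coding exon and chr3:21385200-21385507 in the part of the exon after the coding sequence, aligned over 316 columns at 69.3% identity with 1157 bases between them. All of the second arm lies inside AT3G57700, the kinase gene on the other strand, which was listed at 0 TPM in every genotype. The repeat is thus a match between AT3G57710 and that gene, each read on its own strand, and whether it forms a hairpin was not tested. The best stretch of 30 columns matched at 26, shown with matching bases in capitals. The first line is the gene strand at chr3:21386887-21386916 and the second is the reverse complement of the gene strand at chr3:21385262-21385291.
AT3G57710 first arm: GGaTGTTGTCTcGAGTTTCCTttTCCGGTT
AT3G57710 second arm: GGgTGTTGTCTaGAGTTTCCTcgTCCGGTT
None of the 428 annotated mature miRNAs shared a run of 18 letters with any of the 5 loci on either strand. Among 326 annotated miRNA precursors 2 did: MIR8183 with AT2G14070, and MIR3932b with AT2G14090 and AT3G59240. A search for exact runs misses sites that pair with mismatches, so whether miRNAs target the loci was not tested. The deposited table gives one value per gene and no read sequences, so where in a gene the reads lie was not analysed here.

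**Figure D1:**
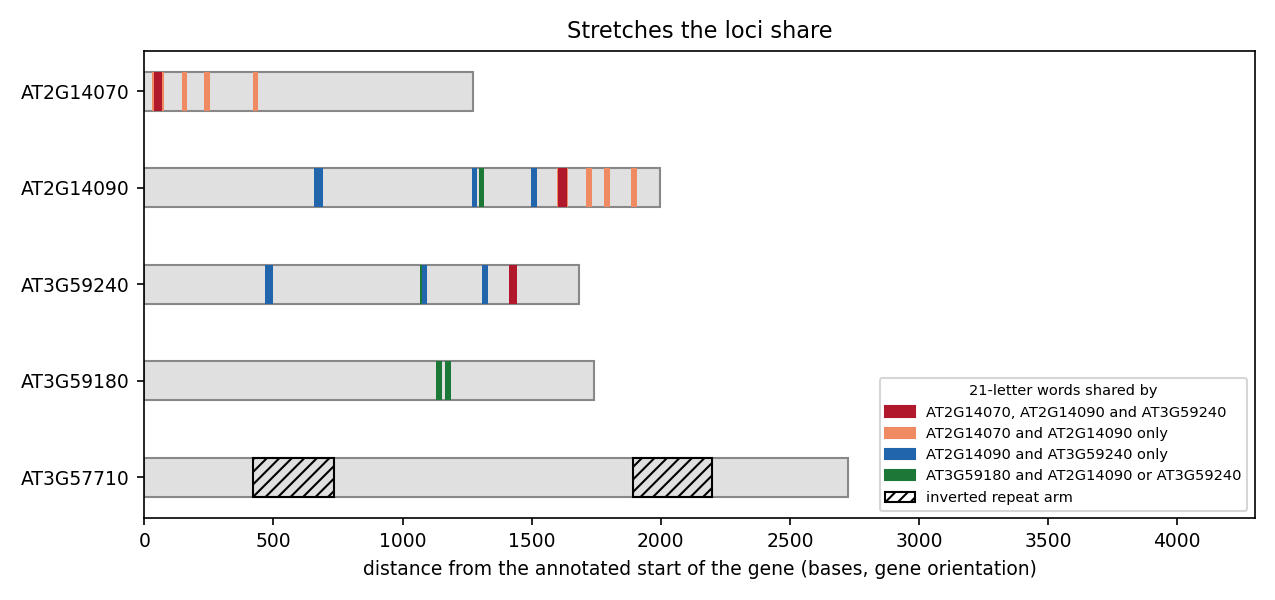
Each grey bar is a locus drawn from its annotated start, in bases along the gene, and coloured blocks are 21-letter words shared with other loci. AT2G14070, AT2G14090 and AT3G59240 share the dark red block of 32 bases, while AT3G57710 shares no block and carries the 2 hatched arms of an inverted repeat.

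Values are the authors' TPM, which behaved as reads of one size class scaled to a fixed total, not divided by gene length. The table holds a mean per genotype, from which whole reads in each library were worked out. Libraries are given from the largest to the smallest read scale; this order is not the replicate numbering and need not match between the size classes. The scale ran from 1035224 to 1442114 reads, so 1 read was worth 0.693 to 0.966 TPM. The labels and the series text do not tie a library to a plant or pool of plants beyond calling them biological replicates. As a loose check of tissue, the green tissue genes had 21-nt reads in every genotype: RBCS1A had means of 198 TPM in es3dd, 245 TPM in es3 and 652 TPM in Col, CAB2 of 427, 634 and 831 TPM, and the plastid gene ATCG00020 of 2441, 1408 and 5406 TPM in the same order. At 22 nt these 3 genes had higher means in es3dd than in es3 on the authors' scale. The root gene PHT1;1 was listed at 0 throughout, and CASP1 had 0.182 TPM in es3 and 0 TPM elsewhere at 21 nt. The mutated genes cannot be checked here, since small RNA reads do not report messenger RNA levels; 21-nt means at DCL2 were 0.241 TPM in es3dd and 4.04 TPM in es3, at DCL4 1.58 TPM in es3dd and 6.87 TPM in es3, at EIN5 1.13 TPM in es3dd and 3.38 TPM in es3, and at SKI2 0.233 TPM in es3dd and 3.53 TPM in es3. In samples made of whole aerial parts, fewer cells making a small RNA and less of it per cell cannot be told apart.

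AT2G14090 and AT3G59240 had the most 21-nt small RNA of the 5 loci in es3dd and in Col, both per gene and per length, while in es3 AT3G57710 had the highest mean per gene. AT3G59240 had 1143, 1115, 1046 and 1360 TPM in the es3dd libraries, against 54.1, 29.1, 38.2 and 31.2 TPM in the es3 libraries, and its mean in Col was 165 TPM. AT2G14090 had 1129, 1153, 1024 and 1314 TPM in es3dd, against 64.5, 40.1, 45.1 and 41.0 TPM in es3, with a Col mean of 154 TPM. Every es3dd library lay far above every es3 library at both loci. The es3dd values per library of this pair were worked out with each library held within 1.5-fold of the mean, a looser match that 5 of 200 random values of that size also met; the means are the authors' own. The es3dd mean of AT3G59240, 1166 ± 136 TPM, was 30.6 times its es3 mean of 38.2 ± 11.3 TPM (SD, n = 4 each). The es3dd mean of AT2G14090, 1155 ± 120 TPM, was 24.2 times its es3 mean of 47.7 ± 11.4 TPM (SD, n = 4 each). On the log2(TPM + 1) scale, es3dd exceeded es3 by 4.93 ± 0.14 at AT3G59240 and by 4.59 ± 0.12 at AT2G14090 (SE).

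AT2G14070, the neighbour of the pseudogene, followed at a lower level. It had 265, 275, 242 and 309 TPM at 21 nt in es3dd, against 4.85, 8.02, 8.41 and 12.3 TPM in es3, and 38.5 TPM in the Col mean. The libraries of the 2 lines did not overlap, and the es3 values rest on 7 to 15 reads each. The es3dd mean of 273 ± 27.9 TPM was 32.5 times the es3 mean of 8.40 ± 3.05 TPM (SD, n = 4 each), a log2 difference of 4.92 ± 0.21 (SE). AT3G59180 was the weakest locus, with 14.2, 15.5, 14.0 and 9.66 TPM in es3dd against 0, 0.729, 1.53 and 0.820 TPM in es3, and 2.10 TPM in the Col mean. These values rest on 58 reads summed over the es3dd libraries and 4 reads over the es3 libraries, and the es3dd mean of 13.3 ± 2.55 TPM was 17.3 times the es3 mean of 0.769 ± 0.625 TPM (SD, n = 4 each). The log2 difference of 3.07 ± 0.41 (SE) has the largest error of the 5 at 21 nt and depends on the method: it was 1.66 with a pseudocount of 5, 3.83 by limma voom and 4.15 in the authors' deposited table with its sign turned to es3dd over es3. AT3G59180 passed the filter on low values through es3dd alone.

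AT3G57710 (RKS1) had a smaller difference on top of a higher es3 level. Its 21-nt values were 375, 316, 265 and 365 TPM in es3dd, against 65.9, 64.1, 71.1 and 57.4 TPM in es3, and 122 TPM in the Col mean. All es3dd libraries were above all es3 libraries, as at each of the other 4 loci and at 8.96% of all genes tested at 21 nt. The es3dd mean of 330 ± 50.5 TPM was 5.11 times the es3 mean of 64.6 ± 5.64 TPM (SD, n = 4 each), a log2 difference of 2.33 ± 0.12 (SE). Per kilobase of gene, the order of the 21-nt means in es3dd was AT3G59240 (693 TPM per kb), AT2G14090 (579), AT2G14070 (215), AT3G57710 (121) and AT3G59180 (7.66).

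**Figure D2:**
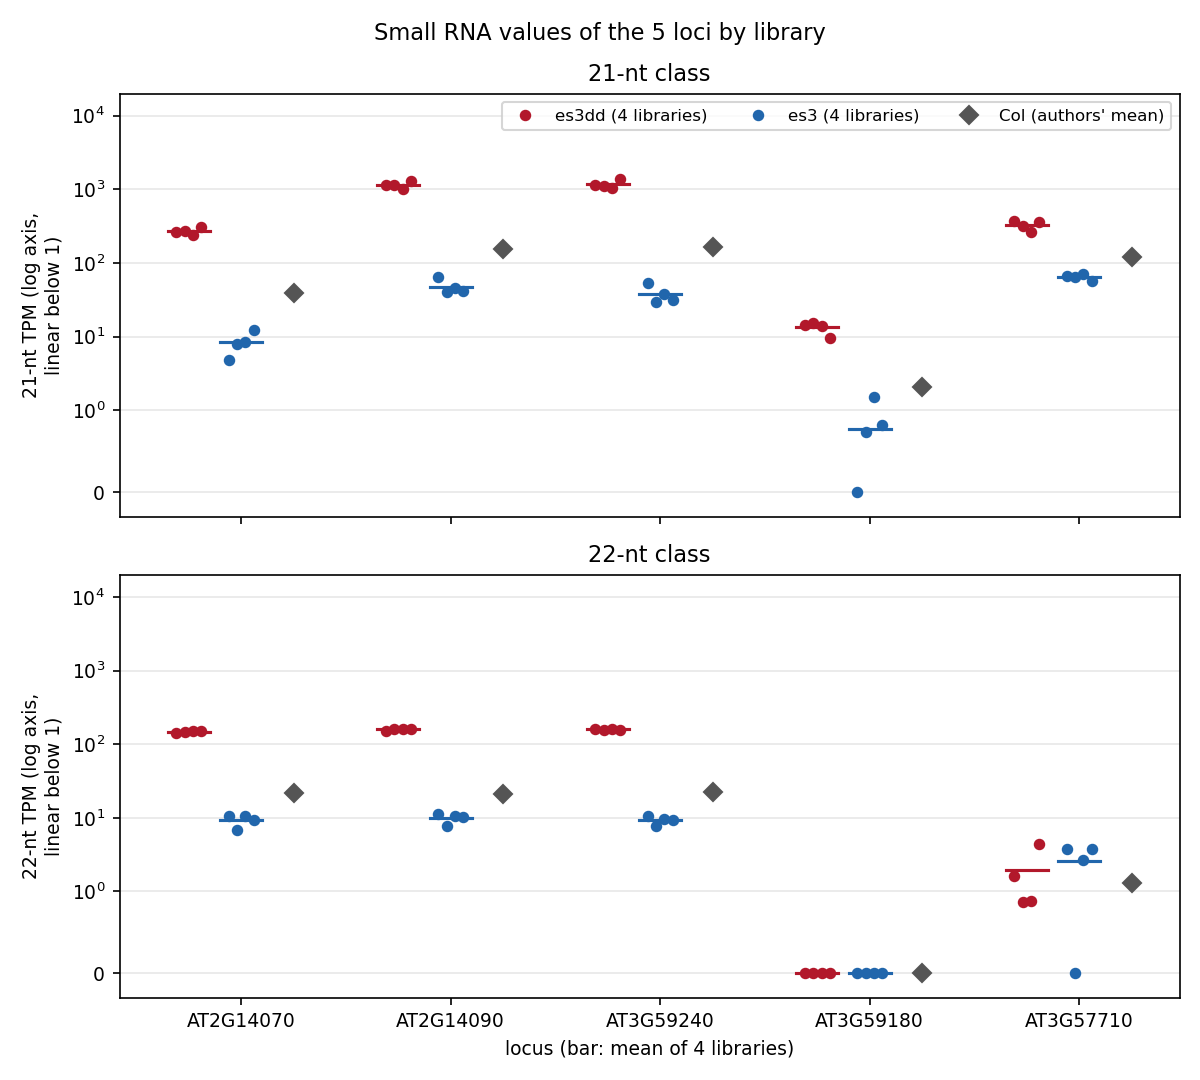
TPM of each locus at 21 nt (top) and 22 nt (bottom) on an axis that is logarithmic above 1, with es3dd left of es3 and the Col mean as a diamond; points are libraries and bars are means. At 21 nt all es3dd points lie above all es3 points at each locus; at 22 nt this holds for AT2G14070, AT2G14090 and AT3G59240, while AT3G59180 is at 0 and AT3G57710 overlaps.

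At 22 nt the 5 loci split. AT3G59240 had 162, 156, 158 and 157 TPM in es3dd, against 10.6, 7.63, 9.76 and 9.46 TPM in es3, and 22.3 TPM in the Col mean. AT2G14090 had 152, 158, 163 and 160 TPM in es3dd, against 11.4, 7.63, 10.6 and 10.4 TPM in es3, and 21 TPM in the Col mean. AT2G14070 had 140, 147, 151 and 153 TPM in es3dd, against 10.6, 6.78, 10.6 and 9.46 TPM in es3, and 21.4 TPM in the Col mean. At these 3 loci every es3dd library exceeded every es3 library, as at 6.86% of all genes tested at 22 nt, and the log2 differences were 3.95 ± 0.18, 3.87 ± 0.18 and 3.86 ± 0.19 (SE) in the order given. AT3G57710 was near the limit of counting, with 1.61, 0.876, 0.884 and 4.44 TPM in es3dd and 3.79, 0, 2.66 and 3.78 TPM in es3. Its lines overlapped, the difference of -0.19 ± 0.55 (SE) was within its error, and its Col mean was 1.31 TPM. AT3G59180 was listed at 0 in every genotype at 22 nt; a count of 0 allows up to 3 reads in a library, or 2.41 to 2.67 TPM in es3dd and 2.27 to 2.84 TPM in es3, for counting error only.

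The near-identical values held library by library. At 22 nt, AT2G14070, AT2G14090 and AT3G59240 had 174, 189 and 201 reads in the first es3dd library and 172, 180 and 177 reads in the last. In es3 the 3 loci had 14, 15 and 14 reads in the first library and 8, 9 and 9 reads in the second. The read count of AT2G14070 was 92.1% to 95.6% of that of AT2G14090 in the es3dd libraries and 88.9% to 100% in the es3 libraries, and the Col means gave 102%. These are read counts of whole genes, not levels per length, for genes of 1271, 1996 and 1683 bases that share 11 words of 22 letters.

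At 21 nt AT2G14090 and AT3G59240 had near-identical values and AT2G14070 lay lower. Their ratio, AT2G14090 over AT3G59240, ran from 0.966 to 1.03 over the es3dd libraries, with 1274 against 1290 reads in the first. In the es3 libraries it ran from 1.18 to 1.38, with 93 against 78 reads in the first, and the Col means gave 0.934. AT2G14090 thus had 9 to 15 reads more than AT3G59240 in each es3 library, while in es3dd AT2G14090 was the higher of the pair in 1 library of 4. AT2G14070 had 23.5% to 23.9% of the 21-nt reads of AT2G14090 in es3dd, a narrow range over 4 libraries. In es3 the share rests on 7 of 93 reads in the first library (7.53%) and 15 of 50 in the last, and it was 25.0% by the Col means. A read lying in a shared stretch would match 2 or 3 of the loci exactly, and how the authors counted reads with several matches is not given in the sources used here. Whether any reads are counted at more than 1 of the loci was not tested, so the values of AT2G14070, AT2G14090 and AT3G59240 may not be independent of each other.

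**Figure D3:**
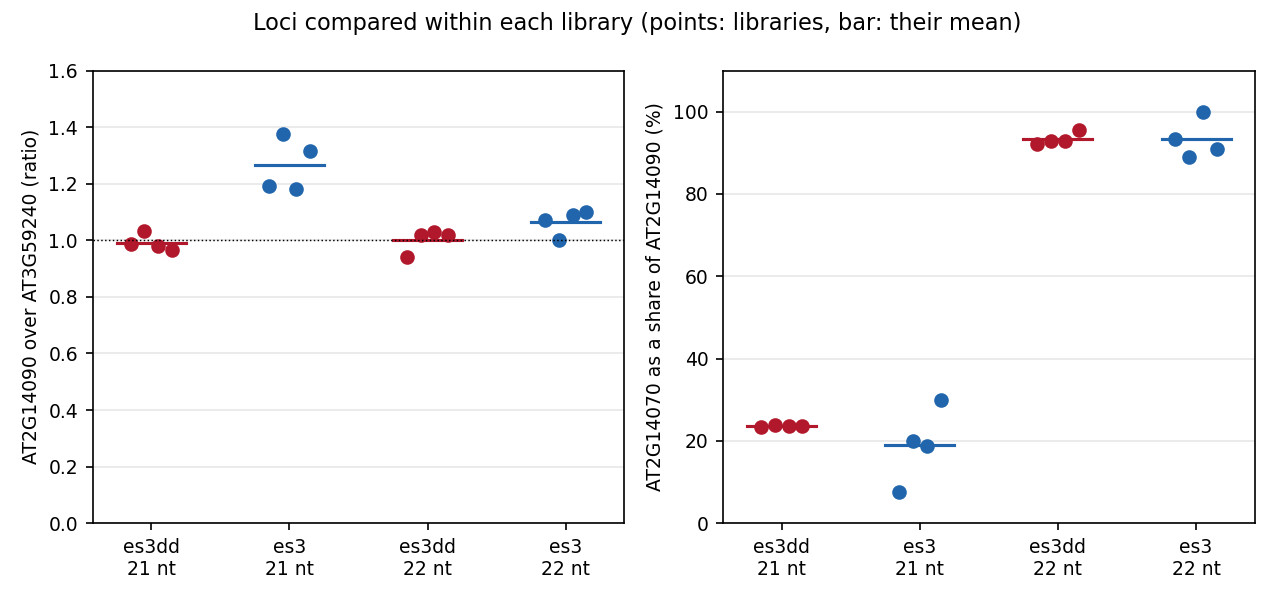
Left, read ratio of AT2G14090 over AT3G59240, and right, reads of AT2G14070 as a percentage of those of AT2G14090, for the es3dd and es3 libraries at 21 and 22 nt; points are libraries and bars their means. The left ratios lie near 1 except in es3 at 21 nt (1.18 to 1.38), and the right shares lie at 23.5% to 23.9% in es3dd at 21 nt and at 88.9% or more at 22 nt.

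The balance of the 2 size classes also set the loci apart. Summed over 4 libraries, AT2G14070 had 1180 reads of 21 nt and 685 of 22 nt in es3dd, against 44 and 44 in es3. AT2G14090 had 4995 and 734 reads in es3dd against 257 and 47 in es3, and AT3G59240 had 5041 and 735 in es3dd against 206 and 44 in es3. AT3G57710 had 1431 and 9 reads in es3dd against 346 and 12 in es3. On the authors' TPM, where each size class is scaled apart, the 22-nt share of the 2 classes was 35.1% in es3dd, 52.8% in es3 and 35.7% in Col at AT2G14070. It was 12.1%, 17.4% and 12% at AT2G14090 and 12%, 19.7% and 11.9% at AT3G59240, in the same order of genotypes. AT3G57710 had a 22-nt share of 0.588%, 3.81% and 1.06%. Over all MIR loci, the genes of microRNA precursors, the share was 8.88%, 9.63% and 7.96%, and over all rows that are no MIR locus 54.6%, 37.1% and 51.0%.

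Wild-type plants held an intermediate position for most of these values. At 21 nt all 5 had their highest mean in es3dd, the next in Col and the lowest in es3, and at 22 nt this order held for AT2G14070, AT2G14090 and AT3G59240. The summed MIR loci had the same order in both classes, with 629041, 416152 and 174228 TPM at 21 nt in es3dd, Col and es3. The share of all genes with this order was not counted, so nothing is read from it. In the authors' deposited table, the log2 fold change of es3 over Col at 21 nt was -2.24 at AT2G14070 (adjusted p = 2.26e-14), -1.69 at AT2G14090 (1.12e-23), -2.10 at AT3G59240 (7.07e-32) and -0.91 at AT3G57710 (2.13e-08). AT3G59180, at -1.44, did not pass in the authors' deposited table (adjusted p = 0.285). At 22 nt the authors' deposited table gave -1.18, -1.06 and -1.24 for AT2G14070, AT2G14090 and AT3G59240 (adjusted p = 0.00122, 0.00365 and 0.000455) and 1.03 for AT3G57710 (adjusted p = 0.62). Loci at least 2-fold lower in es3 and past an adjusted p of 0.05 numbered 3 of 5 at 21 nt, beside 3.89% of 18061 rows, and 3 of 4 with values at 22 nt, beside 3.96% of 14640 rows. The es3 libraries are shared with the contrast that chose the loci, so nothing is read from these counts. The es3dd mean was 7.08, 7.49, 7.07, 6.36 and 2.71 times the Col mean at 21 nt for AT2G14070, AT2G14090, AT3G59240, AT3G59180 and AT3G57710; es3dd and Col were not tested against each other here.

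Among all genes, AT2G14070, AT2G14090 and AT3G59240 stood at the top of the ranking by difference, which their choice makes likely. Of 17414 genes with recovered values and a mean of at least 1 TPM at 21 nt, AT3G59240, AT2G14070 and AT2G14090 ranked 1, 2 and 3 by log2 difference of es3dd over es3, AT3G59180 ranked 18 and AT3G57710 ranked 83. Of 14664 genes at 22 nt, AT3G59240, AT2G14090 and AT2G14070 ranked 2, 3 and 4, after MIR169i. A log2 difference of at least 1 was seen at 5 of the 5 loci at 21 nt, beside 8.44% of all genes tested, and at 3 of 5 at 22 nt, beside 6.04%. The lowest es3dd library exceeded the highest es3 library at 5 and 3 loci, beside 8.96% and 6.86% of genes. In limma's fit, 7.69% of genes at 21 nt were called higher in es3dd and 45.9% lower, and at 22 nt 4.33% higher and 15.2% lower (adjusted p under 0.05 and at least 2-fold). The contrast chose the loci, so their counts add nothing to these shares. The median gene had a log2 difference of -0.98 at 21 nt and -0.30 at 22 nt.

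**Figure D4:**
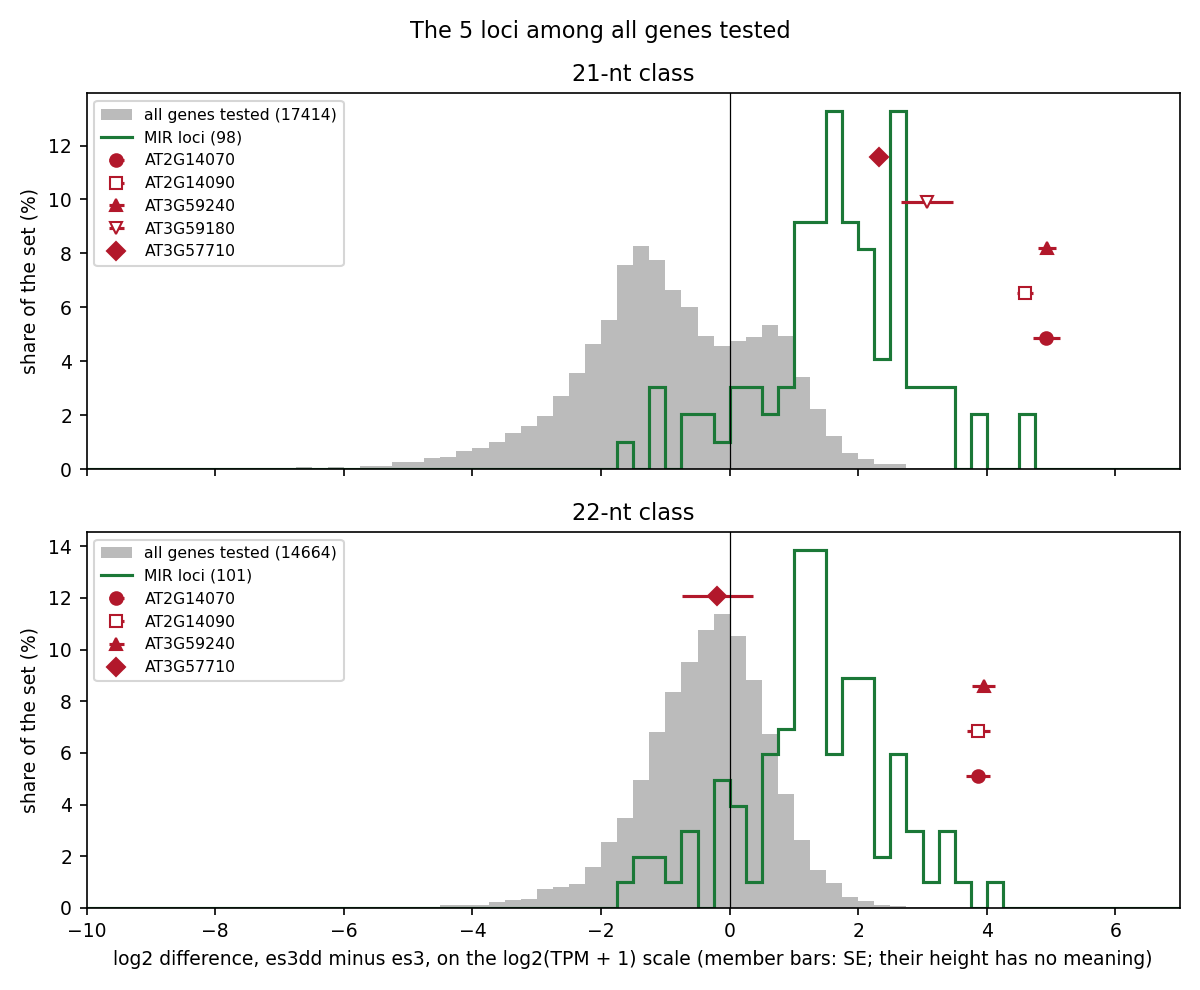
Share of all genes tested (grey) and of MIR loci (green line) at each log2 difference of es3dd minus es3, at 21 nt (top) and 22 nt (bottom), with the loci as red symbols and their SE. AT2G14070, AT2G14090 and AT3G59240 lie right of nearly all genes in both classes, while AT3G57710 lies among the MIR loci at 21 nt and near the centre of all genes at 22 nt.

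MIR loci, whose small RNAs are mostly made by DCL1, were mainly higher in es3dd on the authors' scale. In limma's fit, 76 of 98 MIR loci tested at 21 nt were higher in es3dd and 2 were lower, with a median log2 difference of 1.71, and at 22 nt 60 of 101 were higher and 2 lower, with a median of 1.30. Scaled to their own sum, 18 of 96 were higher and 13 lower at 21 nt, and 18 of 103 were higher and 19 lower at 22 nt. That scaling makes the summed MIR loci equal in both lines, so nothing is read from the balance of these counts. No tested MIR locus had a larger 21-nt difference than AT2G14070, AT2G14090 or AT3G59240. MIR160b (4.57) and MIR169e (4.56) were within the SE of AT2G14090 (4.59 ± 0.12). A larger 21-nt difference was seen at 9 MIR loci for AT3G59180 and at 28 for AT3G57710. The most abundant MIR loci had no recovered libraries and are not in this ranking. The contrast chose the 5 loci, so nothing is read from their place among MIR loci. MIR loci made up 83.0% of the summed 21-nt TPM in es3dd, 33.2% in es3 and 68.4% in Col, so each TPM depends on that share. The summed TPM of the 5 loci was 0.388% in es3dd, 0.0304% in es3 and 0.0792% in Col.

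Scaling both lines to their summed MIR loci, in place of the authors' scaling, lowered the 21-nt difference at all 5 loci, and the median gene then had a log2 difference of -1.94. AT2G14070 kept a log2 difference of 3.17, AT3G59240 of 3.10, AT2G14090 of 2.76 and AT3G59180 of 1.95, while AT3G57710 fell under the 2-fold line at 0.49. With plastid-encoded genes as the scale, AT3G57710 had 0.99 and the other 4 had 2.25 to 3.64. At 22 nt the differences under MIR scaling were 2.22 at AT2G14070, 2.22 at AT2G14090 and 2.31 at AT3G59240. Under the same scaling AT3G57710 had -1.21 at 22 nt.

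**Figure D5:**
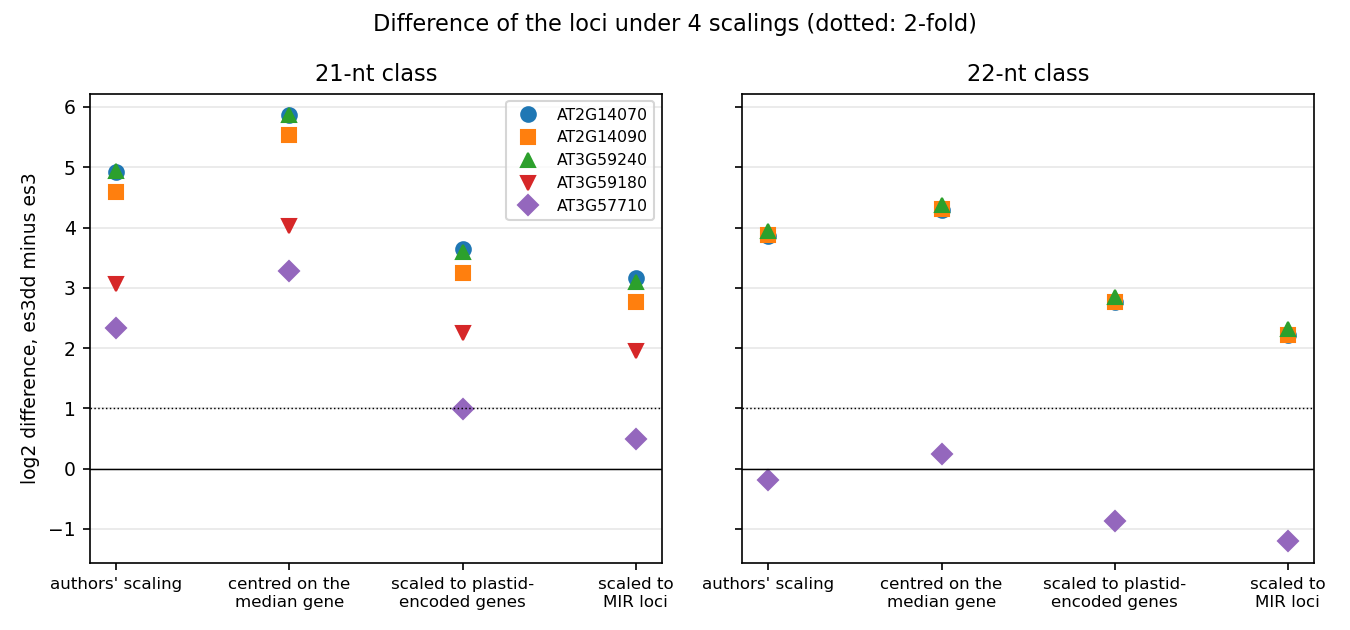
Log2 difference of es3dd minus es3 at each locus under the authors' scaling and 3 others, at 21 nt (left) and 22 nt (right); the dotted line marks 2-fold. AT2G14070, AT2G14090 and AT3G59240 stay above a log2 difference of 2 in every case shown, while AT3G57710 at 21 nt ranges from 3.27 to 0.49.

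The genes next to the loci moved in both directions. The 5 annotated genes on either side of each locus made 37 genes, of which 31 had a row and 12 were tested at 21 nt; 2 were higher in es3dd and 4 lower, beside 7.69% of all genes higher and 45.9% lower, with a median log2 difference of -0.93 beside -0.98 for all genes. After centring each library on its median gene 5 of the 12 were higher and 2 lower, and scaled to MIR loci 0 of 13 were higher and 8 lower. Both higher ones, AT3G57720 and AT3G57730, stand beside AT3G57710. The lower ones were ABCC10 (AT3G59140), a transporter gene near AT3G59180, with a log2 difference of -3.62 ± 0.45 (SE), the resistance gene AT2G14080 with -1.97 ± 0.38, AT2G14045 with -1.28 ± 0.47 and NTT (AT3G57670), a zinc finger gene, with -1.21 ± 0.47 (limma, adjusted p = 2.27e-07, 0.000132, 0.0228 and 0.0321 in that order). After centring, AT2G14045 and NTT were not called (adjusted p = 0.593 and 0.68). AT2G14080 lies between AT2G14070 and AT2G14090 and averaged 3.45 ± 2.19 TPM in es3dd against 15.8 ± 6.24 TPM in es3 (SD, n = 4 each; limma, adjusted p = 0.000132). Other neighbours reached 2-fold without passing the test: AT3G59250, an F-box gene, at 1.04 (limma, adjusted p = 0.0585), AT3G59280 at -1.11 (0.0846) and AT2G14120, at the 2-fold line (0.119). At 22 nt 10 neighbours were tested, of which 1 was higher and 2 lower, beside 4.33% of all genes higher and 15.2% lower. The higher one was AT3G57720. The lower ones were AT2G14045 at -1.45 (limma, adjusted p = 0.0379, and 0.168 after centring) and ABCC10 at -2.79 (1.57e-05). AT3G59150, an F-box gene, had -1.31 without passing (limma, adjusted p = 0.0763).

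Most F-box genes around AT3G59240 and AT3G59180 had too little small RNA to be tested. Of 26 other genes between AT3G58000 and AT3G60000 annotated with F-box, FBD or RNI, 16 had any 21-nt value above 0 and 6 were tested. Limma called 0 higher in es3dd and 1 lower, AT3G59000 at -1.54 (adjusted p = 0.0113, and 0.357 after centring), beside 7.69% of all genes higher and 45.9% lower. Limma voom, at the same adjusted threshold, also called 0 higher and 1 lower. At an unadjusted p under 0.05 in limma, 1 was higher and 2 were lower. Their median log2 difference was -0.79 beside -0.98 for all genes. After centring each library on its median gene, 2 of the 6 were called higher and 0 lower, and when scaled to MIR loci 0 of 8 were higher and 5 lower. At 22 nt 5 were tested. Limma and limma voom each called 0 in either direction at the adjusted threshold, beside 4.33% of all genes higher and 15.2% lower in limma. At an unadjusted p under 0.05 in limma, 0 were higher and 1 was lower. AT3G59230, a neighbour of AT3G59240 that shares 11 words of 21 letters with it, was listed at 0 in every genotype and both classes. AT3G59250 also shares 11 words with AT3G59240, and 8 with AT2G14090, and had 21-nt means of 4.56 TPM in es3dd and 1.54 TPM in es3, the difference of 1.04 that did not pass the test. AT3G59190, which shares 26 words with AT3G59180, had 21-nt means of 0.233 TPM in es3dd and 0.373 TPM in es3.

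In the ZED1-related kinase cluster, 3 of the 7 genes beside AT3G57710 were tested at 21 nt. On the authors' scale 2 were higher in es3dd and 1 lower, beside 7.69% of all genes higher and 45.9% lower. AT3G57720 averaged 189 ± 17.4 TPM at 21 nt in es3dd against 59.9 ± 15.4 TPM in es3, a log2 difference of 1.67 ± 0.15 (SE; limma, adjusted p = 1.06e-09), which turned to -0.16 when scaled to MIR loci. AT3G57730 averaged 112 ± 18.1 TPM in es3dd against 39.5 ± 7.98 TPM in es3, 1.48 ± 0.17 (SE; limma, adjusted p = 6.91e-08), which turned to -0.34 under that scaling. All 1761 bases of AT3G57730 lie inside AT3G57720 on the opposite strand, so reads in that overlap cannot be assigned to 1 of the 2 genes without strand. AT3G57710 shares 37 words of 21 letters with AT3G57720 on the same strand and 12 on the opposite strand, and 12 with AT3G57730. It shares more, 81 words on the opposite strand, with AT3G57770 of the same cluster, which had a 21-nt mean of 0 TPM in every genotype. The kinase pseudogene AT1G43895 shares 11 words on the opposite strand and had 21-nt means of 0 TPM in es3dd and 0.373 TPM in es3. ZED1 itself (AT3G57750), the pseudokinase that gives the family its name, went the other way, with 0.474 ± 0.548 TPM in es3dd against 3.81 ± 3.11 TPM in es3 (-1.51 ± 0.52 SE; limma, adjusted p = 0.0167), and was not called after centring on the median gene (adjusted p = 0.393). AT3G57700, whole inside AT3G57710, and AT3G57740 were listed at 0 throughout. At 22 nt AT3G57720 was higher at 30.9 ± 5.50 TPM in es3dd against 11.1 ± 2.79 TPM in es3 (limma, adjusted p = 1.18e-05; -0.21 when scaled to MIR loci), and AT3G57730 had 4.46 ± 1.99 TPM in es3dd and 6.89 ± 4.75 TPM in es3, -0.41 ± 0.43 (SE; limma, adjusted p = 0.535), which passed the test as lower when scaled to MIR loci (-1.85, adjusted p = 0.000623) or to plastid-encoded genes (-1.37, adjusted p = 0.00876).

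The genes most like each locus over the 6 means (3 genotypes, 2 size classes) on the log2(mean + 1) scale were mostly MIR loci, histone H2A copies and a plastid gene. AT2G14090 and AT3G59240 were nearest to each other, at a Euclidean distance of 0.35. Outside the 5 loci, the nearest to both was AT4G04408, a pseudogene of histone H2A, at 1.82 from AT2G14090 and 1.91 from AT3G59240, followed by HTA4 (2.58 and 2.65), which encodes a histone H2A, and the plastid-encoded ATCG00430 (2.84 and 2.84). AT4G04408 had 21-nt means of 353 TPM in es3dd, 51.3 TPM in es3 and 143 TPM in Col. AT2G14070 was nearest to MIR169d (2.11), MIR169g (2.39) and HTA4 (2.40). AT3G59180 was nearest to AT5G42120, a lectin receptor kinase gene (0.83), MIR172d (0.89) and MIR836 (1.43). AT3G57710 was nearest to MIR171a (1.69), MIR170 (1.87) and MIR393a (1.97). MIR171a had 21-nt means of 261 TPM in es3dd, 113 TPM in es3 and 271 TPM in Col.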

How the data were processed

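Small RNA of es3dd and es3 plants, 4 libraries each, was read over 50 bases from one end. Bowtie 1.2.2 and SAMtools 1.9 are listed in the submitters' processing notes, as are DESeq2 and the build TAIR10; the counting rules are not given in the sources used here. The authors deposited mean TPM per genotype and size class, log2 fold changes, and p-values with adjusted p-values for es3 over Col and es3 over es3dd. Columns of per-sample values not used numbered 0. TPM was read from its steps as reads of a size class scaled to a fixed total.

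Values per library were recovered as whole reads whose scaled mean equals the deposited mean (relative tolerance 5e-15). Means of up to 1500 reads over 4 libraries had a single match in 92342 of 92342 cases, and 0 of 12742 random values matched. Larger means, among them AT2G14090 and AT3G59240 at 21 nt in es3dd, were matched with each library within 1.5-fold of the mean (222 of 239 single; 5 of 200 random values of the size of these 2 loci matched). This left 141 larger values without libraries.

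The main fit was limma 3.58.1 (R 4.3.3) with trend on log2(TPM + 1), genes with a mean of at least 1, Benjamini-Hochberg adjustment, called at adjusted p under 0.05 and at least 2-fold. In data simulated with 4-fold changes it recovered 90.5% of 200 changed genes at 21 nt (16563 genes) and 92.0% at 22 nt (13804 genes). The changed genes were raised and lowered in equal numbers, the lowest and the highest genes were left unchanged, and the other genes were not shifted. AT2G14090 and AT3G59240 at 21 nt lie in that highest range. The recovery therefore does not cover the lowest or highest genes or the shift of the median gene seen in these data. A fold change on this scale understates the change of low genes. P-values measure the spread between these libraries. Inverted repeats were sought with blastn 2.17.0. Genes were named by rule: the 5 loci, neighbours with at least a 2-fold difference, the 3 genes nearest to each locus over the 6 means, and the genes of the genotypes; genes sharing words with a locus and list members of interest were added after values were seen. The loci and the lists were chosen with earlier results of these data known.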

Additional observations from a re-analysis of the deposited data

How the results depend on the processing

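All 5 loci kept their direction at 21 nt in the 88 values from other settings. The loci were chosen for that direction and their libraries do not overlap, so nothing is read from this. Of the 88 values, 68 stayed within the SD between libraries of a line on the log2 scale and 20 moved by more. The fit without values recovered under the 1.5-fold limit and limma voom were chosen after seeing the data. Genes called higher in es3dd numbered 1339 at 21 nt and 635 at 22 nt, and changed to 454 and 236 with a pseudocount of 5, 4365 and 1600 after centring, 70 and 40 when scaled to MIR loci, and 148 and 89 when scaled to plastid-encoded genes. A minimum mean of 5 left 892 at 21 nt. Without single libraries they numbered 1213 to 1323 and 551 to 604. Loci with at least a 2-fold difference at 21 nt numbered 3 without the values recovered under the 1.5-fold limit, which removes AT2G14090 and AT3G59240, and 4 under MIR or plastid scaling. At 22 nt AT3G57710 turned from -0.19 to 0.24 after centring, and ranged from -0.72 to 0.04 without single libraries, above 0 without the first (0.04) or the last (0.03) es3 library. Of higher and lower calls at 21 nt, 14.3% were higher, against 56.7% after centring, 0.464% with MIR scaling and 1.14% with plastid scaling; at 22 nt the shares were 22.2%, 56.4%, 0.373% and 1.16%. No paired analysis was possible because values worked out from means bear no replicate number, and the fit with the replicate block was not run. Depth limits AT3G59180 and, at 22 nt, AT3G57710.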
